A study of Sus scrofa with 32 samples.

Results

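SRD5A1 encodes steroid 5-alpha-reductase type 1, and its messenger RNA was followed in the testis of 32 male pigs, 1 gene of the 25322 identifiers that were counted in each library. The gene was read under the identifier ENSSSCG00000017103. It was picked because its level went with androstenone in these same pigs, so its relation to androstenone and to the androstenone groups is described below with no test. The breed was a Danish cross, Duroc by Landrace/Yorkshire, and the pigs were killed at a weight near 100 kg, with no age given. AS is the submitters' androstenone and skatole group. Of the High AS pigs 10 ate a control diet and 7 chicory, and of the Low AS pigs 7 ate the control diet and 7 chicory. Chicory made up 15% of the feed of its groups during the last 3 days. A pig on chicory carried no AS group and entered only the fits that need none. Each pig gave 1 library, and the pigs came from 14 sows, so pigs of a sow are related and not fully independent.

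Androstenone is a pheromone steroid of the boar that collects in fat and, with skatole, gives pork from entire males the off-odour known as boar taint. Leydig cells of the testis make it from cholesterol: CYP11A1 cuts the side chain to give pregnenolone, CYP17A1 with cytochrome b5 (CYB5A) turns pregnenolone into a 16-androstene, and an oxidation step gives androstadienone. A 5-alpha-reductase then saturates androstadienone to androstenone, which leaves the testis free or after sulfation. The same type of enzyme turns testosterone into dihydrotestosterone.

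Library names divide the pigs into 24 plain libraries, with 1855174 to 5993637 counts in genes, and 8 numbered libraries, with 10585625 to 20349500. Of the numbered libraries 6 were High AS and 2 Low AS, so library set was a term in the models and correlations were kept within a set. Some numbered libraries, all of them High AS, were recorded in a different lane from every other library. Lane was not a term in any fit, and library set does not separate it. All plain libraries shared a lane. Markers of Leydig, Sertoli and germ cells were read in these libraries, and of 6 epididymis markers with an identifier, CRISP1, CST11, DEFB1 and LCN2 averaged under 1 count per 1000000 counts in genes, while CUBN and ADAM7 averaged 16.1 and 35.8 in the plain libraries.

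SRD5A1 was read in all 32 pigs, with 65 to 1203 counts per library and 10384 in total. Its level ranged from 21.4 to 161 counts per 1000000 (CPM, scaled between libraries by the trimmed mean of M values, TMM), a 7.54-fold span around a median of 52.8. The lowest pig, Low AS chicory replicate 6, had 107 counts, and the 95% Poisson interval of its level, which covers counting error only, was 17.6 to 25.9 CPM. The highest, High AS chicory replicate 3, had 346 counts, with an interval of 145 to 179 CPM. Counting error was thus small beside the spread between pigs. The 24 plain libraries averaged 57.1 CPM ± 28.2 and the 8 numbered ones 52 CPM ± 22.2 (SD), and the sets overlapped throughout.

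The groups overlapped in SRD5A1. High AS pigs on control diet ran from 42.9 CPM to 78.6 CPM with a median of 65.3 (mean 63.9 ± 11, SD, n = 10), the smallest SD of the 4 groups. High AS pigs on chicory ran from 32.5 to 161 CPM with a median of 47.8 (mean 65.5 ± 46.5, SD, n = 7). That mean rested on replicate 3: without it the mean was 49.5 CPM ± 21.2 and the highest pig stood at 86.2 CPM. Low AS pigs on control diet ran from 23 to 89.1 CPM with a median of 52.6 (mean 51.4 ± 24.4, SD, n = 7). Low AS pigs on chicory ran from 21.4 to 59.9 CPM with a median of 39.4 (mean 40.1 ± 13, SD, n = 7). The pig without an AS group had 48.6 CPM.

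**Figure D1:**
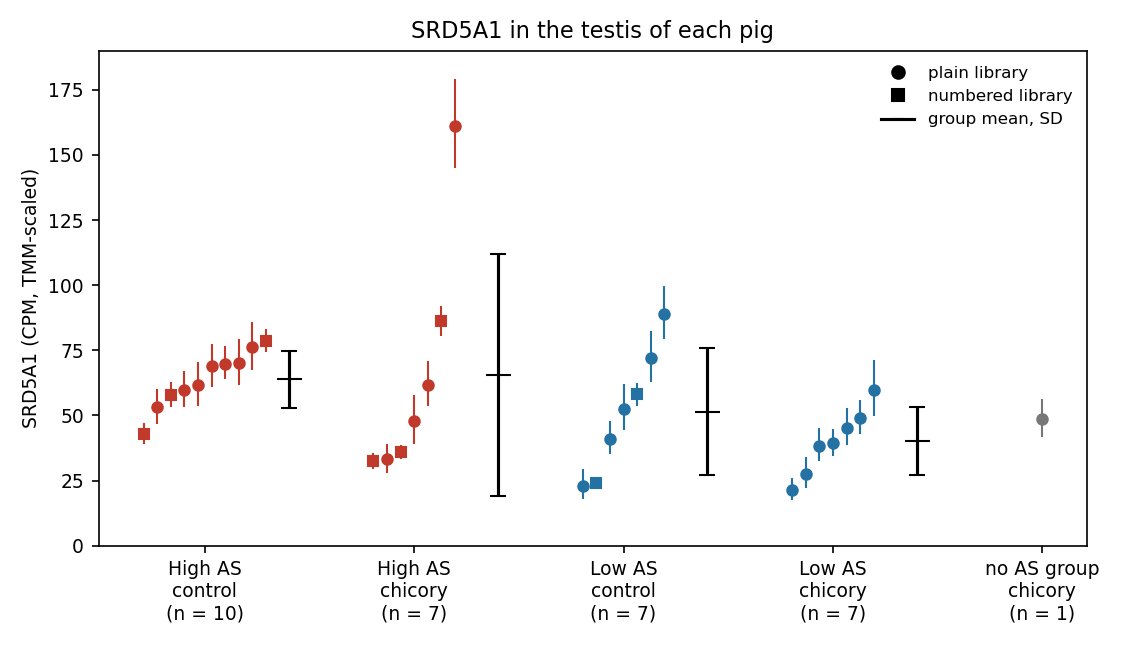
SRD5A1 in CPM (y axis) for each pig of the 4 groups and the pig without an AS group (x axis); circles are plain and squares numbered libraries, thin bars are 95% Poisson intervals of the count, and black marks give the group mean with 1 SD. High AS chicory replicate 3, at 161 CPM, stands above all others, and the next highest pig is Low AS control replicate 5 at 89.1 CPM.

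Between the AS groups, High AS pigs had 64.6 CPM ± 29.6 (SD, n = 17) and Low AS pigs 45.8 CPM ± 19.6 (SD, n = 14). The fitted difference, with diet and library set in the model, was 0.54 on the log2 scale (SE 0.21), High over Low. It was 0.35 without High AS chicory replicate 3 and 0.29 (SE 0.24, 29 pigs) with carcass weight as a covariate. Of the 14 Low AS pigs, 4 lay below the lowest High AS pig and 3 of these were recorded at 0 mg/kg androstenone, while 1 of the 17 High AS pigs lay above the highest Low AS pig. Most pigs of both groups therefore shared 1 range.

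The pigs recorded at 0 mg/kg androstenone held much of the low end. These 4 Low AS pigs had 21.4, 23, 27.6 and 41.1 CPM of SRD5A1 (median 25.3). The other 10 Low AS pigs ran from 24 to 89.1 CPM with a median of 50.9. The 7 pigs with 2 mg/kg androstenone or more ran from 42.9 to 161 CPM with a median of 68.8. The highest 0 mg/kg pig, in a plain library, and the lowest of these 7, in a numbered one, had overlapping counting intervals (35.1 to 47.8 and 38.9 to 47.2 CPM). Of the 4 pigs at 0 mg/kg, 3 shared the first index of their libraries, and 2 came from the same sow. The gene was picked for this relation, so the separation carries no test. The pig with the most androstenone, 7.77 mg/kg, had 68.8 CPM, and the pig with the highest SRD5A1 had 5.9 mg/kg.

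Per doubling of androstenone plus 0.5 mg/kg, SRD5A1 was 0.44 higher on the log2 scale (SE 0.08, 31 pigs). It was 0.33 without High AS chicory replicate 3 and 0.35 (SE 0.10) without the 4 pigs at 0 mg/kg. With sow as a block, which compares pigs of the same sow, it was 0.54 (SE 0.13). In the fit on androstenone 0.0227% of the 13199 genes tested passed an adjusted p of 0.05. SRD5A1 was among these, but it was picked for this slope, so its place there is no test of the relation.

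Among pigs of the same sow, the levels can be set side by side. Of 9 sows with 2 or more pigs of known androstenone, 1 had both pigs at 0 mg/kg, with 23 and 27.6 CPM. In the other 8, SRD5A1 was higher in the pig with the most androstenone than in the pig with the least in 8 of 8, and in 6 of 6 where both libraries came from the same set. The sow with 5 pigs spanned the widest range. Her pig at 5.9 mg/kg had 161 CPM, the pig at 3.89 mg/kg had 42.9, the pig at 1.12 mg/kg had 35.9, the pig at 0.93 mg/kg had 72.1 and the pig at 0.79 mg/kg had 39.4. Across the library sets, SRD5A1 did not follow the order of androstenone within this sow beyond its highest pig. Within each library set it did follow that order. The plain libraries were the pigs at 5.9, 0.93 and 0.79 mg/kg, with 161, 72.1 and 39.4 CPM. The numbered libraries were the pigs at 3.89 and 1.12 mg/kg, with 42.9 and 35.9 CPM. In another sow the 2 ends, at 1.11 and 0.52 mg/kg, had 61.7 and 59.9 CPM, and their counting intervals, 53.8 to 70.5 and 49.8 to 71.4 CPM, overlapped. These pairs belong to the relation for which the gene was picked and carry no test.

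**Figure D2:**
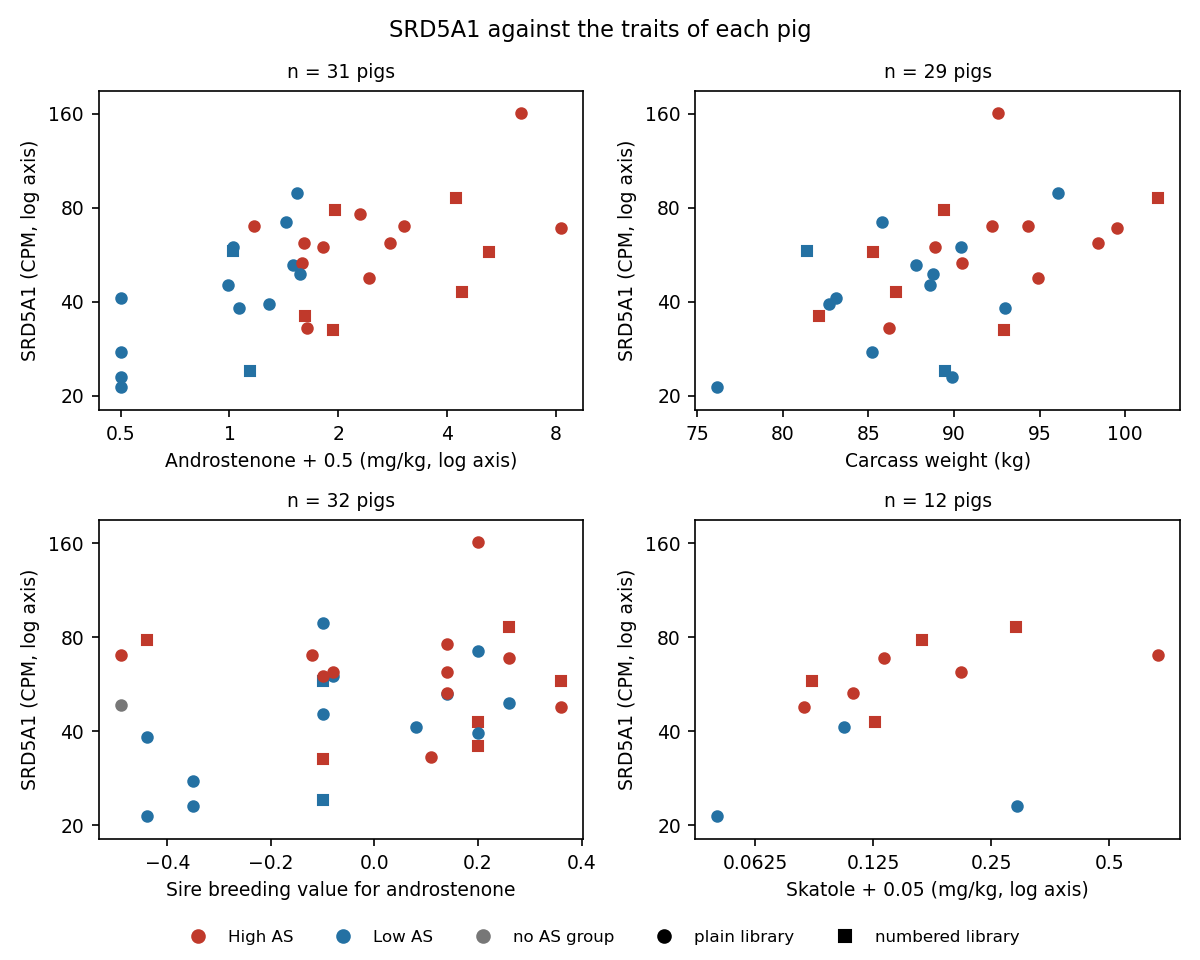
SRD5A1 in CPM (y axes, log scale) against androstenone, carcass weight, the sire breeding value and skatole (x axes, androstenone and skatole on log scales after adding 0.5 and 0.05 mg/kg); colours mark the AS group and shapes the library set. Of the 4 pigs at 0 mg/kg androstenone, 3 lie at 27.6 CPM or lower, and the 4 heaviest pigs lie at 61.7 CPM or higher.

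Diet made no difference to SRD5A1 that the test could call. Pigs on the control diet had 58.8 CPM ± 18.2 (SD, n = 17; 23 to 89.1, median 59.9) and pigs with an AS group on chicory 52.8 CPM ± 35.3 (SD, n = 14; 21.4 to 161, median 42.3). The ranges overlapped, and the lower median on chicory came with the highest single pig. The fitted difference, chicory over control, was -0.17 on the log2 scale (SE 0.20, 95% interval -0.59 to 0.25). In edgeR's quasi-likelihood test its unadjusted p was 0.41 and its adjusted p 1. Of the 13025 genes tested 0.00768% passed, which was 1 gene, and 0.875% had an unadjusted p under 0.05. Leaving out High AS chicory replicate 3 gave -0.36 (SE 0.18, unadjusted p = 0.0536 by edgeR). Leaving out Low AS control replicate 5 gave -0.09 (SE 0.20, unadjusted p = 0.667 by edgeR). Single pigs thus moved the difference by more than 1.5 times, with an adjusted p of 1 in both fits.

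The AS difference in SRD5A1 was not shown to depend on diet. The interaction, the AS difference on chicory minus that on control diet, was 0.47 on the log2 scale (SE 0.41, 95% interval -0.38 to 1.32). By edgeR its unadjusted p was 0.261 and its adjusted p 0.951. It was 0.04 when High AS chicory replicate 3 was left out and 0.62 when Low AS control replicate 2 was, and with sow as a block it was 0.84 (SE 0.46, adjusted p = 0.999 by edgeR). edgeR called 0 of 13025 genes for the interaction (0%), 473 genes, or 3.63%, had an unadjusted p under 0.05, and DESeq2 also called 0.

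Carcass weight went with SRD5A1 in the plain libraries, though the test over all genes did not call it. The 4 lightest pigs with a recorded weight, 76.2 to 82.7 kg, had 21.4 to 58.1 CPM, and the 4 heaviest, 96.1 to 101.9 kg, had 61.7 to 89.1 CPM. The gap between these extremes depends on the cut at 4 pigs, and both extremes mix library sets. The counting intervals of the pigs at 58.1 and 61.7 CPM, 53.8 to 62.6 and 53.8 to 70.5, overlapped. The next heaviest pig, at 94.9 kg, had 47.8 CPM, and pigs between the extremes ran from 23 to 161 CPM. Per 10 kg of carcass weight SRD5A1 was 0.58 higher on the log2 scale (SE 0.18, 95% interval 0.20 to 0.95, 29 pigs), with an unadjusted p of 0.00367 and an adjusted p of 0.999 in edgeR. Its p ranked 15 of 13413. edgeR called 0 genes for weight (0%), 221 genes, or 1.65%, had an unadjusted p under 0.05, and DESeq2 also called 0.

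Within library sets, the correlation of SRD5A1 log2 CPM with weight held in the larger set. Over the 21 plain libraries with a weight Pearson's r was 0.59 (permutation p = 0.0048, adjusted over 4 relations 0.019) and Spearman's rho was 0.58 (permutation p = 0.0063, adjusted 0.025). Leaving out the 2 pigs farthest from the median weight left r at 0.46. Over the 8 numbered libraries r was 0.29 (exact permutation p = 0.5, adjusted 0.5) and rho 0.0 (exact permutation p = 1, adjusted 1). Androstenone moved with weight as well: over the same 21 plain libraries its log2 value had an r of 0.62 with weight (permutation p = 0.0018, adjusted over 5 relations of androstenone 0.0048) and a rho of 0.57 (permutation p = 0.0073, adjusted 0.018), with r at 0.42 without the 2 farthest pigs. Over the 8 numbered libraries it had an r of 0.37 (exact permutation p = 0.39, adjusted 0.49) and a rho of 0.24 (exact permutation p = 0.58, adjusted 0.73), with r at -0.28 without the 2 farthest pigs. In the plain libraries, weight is therefore not independent of the trait for which the gene was picked. With log2 androstenone as a further term the slope on weight was 0.20 (SE 0.18), and with the summed Leydig markers described below it was 0.31 (SE 0.13), both by fits added after the data were seen. The permutation tests take pigs of a sow as independent. With sow as a block, also added later, the slope was 0.72 (SE 0.23, adjusted p = 0.606 by edgeR).

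The sire's breeding value for androstenone, an estimate of the sire's genetic merit that the labels give with each pig, ran from -0.49 to 0.36. The 32 pigs held 12 distinct values, and pigs of a sow differed in the value in only 1 sow. Per unit of the breeding value SRD5A1 was 0.65 higher on the log2 scale (SE 0.40, 95% interval -0.17 to 1.47, 32 pigs). The slope had an unadjusted p of 0.112 and an adjusted p of 0.56 by edgeR, and could not be told from 0. The fit takes pigs that share a sire value as independent. Of the 13009 genes tested 0.0154% passed: 2 genes, ABCB10 and PHOSPHO2, neither of them in a steroid list, with 17 genes called by DESeq2, and 10.3% had an unadjusted p under 0.05. The pigs with the lowest breeding values covered a wide range of SRD5A1. At -0.49 the 2 pigs had 70.1 and 48.6 CPM, and at -0.44 the 3 pigs had 78.6, 38.3 and 21.4 CPM. Over the means of 14 sows, with library set means taken out, r was 0.31 (permutation p = 0.28, adjusted over 4 relations 0.44) and rho 0.2 (permutation p = 0.5, adjusted 0.66), and r was 0.46 without the 2 sows farthest from the median.

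The slope on the breeding value moved with the pigs and terms in the fit. It was 0.38 without High AS chicory replicate 3, 1.01 without High AS control replicate 8, 0.27 (SE 0.40) without the 4 pigs at 0 mg/kg and 0.15 (SE 0.58) with the index set, the pigs grouped by the first index of their library, in place of library set. With log2 androstenone as a further term it was -0.41 (SE 0.41). Log2 androstenone had an r of 0.60 with the breeding value over 23 plain libraries (permutation p = 0.0019, adjusted 0.0048) and a rho of 0.56 (permutation p = 0.006, adjusted 0.018), with r at 0.65 without the 2 farthest pigs. Over the 8 numbered libraries r was 0.65 (exact permutation p = 0.075, adjusted 0.12) and rho 0.61 (exact permutation p = 0.11, adjusted 0.18). The breeding value, like weight, is therefore not independent of the trait for which the gene was picked, as seen in the plain libraries.

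Skatole, the other compound of boar taint, is made by gut bacteria from tryptophan and was recorded for 12 pigs, 9 High AS and 3 Low AS. The pig at 0 mg/kg had 21.4 CPM of SRD5A1, the lowest level of all, and the pig at 0.615 mg/kg had 70.1. The pig at 0.24 mg/kg among the Low AS pigs had 23 CPM, so low SRD5A1 was seen at both low and high skatole. Per doubling of skatole plus 0.05 mg/kg the slope was 0.27 on the log2 scale (SE 0.14, 95% interval -0.04 to 0.59). The fit held library set but no diet term, and by edgeR the unadjusted p was 0.0657 and the adjusted p 0.985. edgeR called 0 of 13195 genes (0%), 592 genes, or 4.49%, had an unadjusted p under 0.05, and DESeq2 called 5.

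The skatole slope rested on single pigs. It was 0.16 when Low AS chicory replicate 6 was left out and 0.37 when Low AS control replicate 2 was. With sow as a block it was 0.87 (SE 0.39, adjusted p = 0.773 by edgeR), in a fit where 6 of 9 sows had 1 pig each. Over the 8 plain libraries with a value r was 0.39 (exact permutation p = 0.33, adjusted over 4 relations 0.44) and rho 0.6 (exact permutation p = 0.13, adjusted 0.26). Leaving out the 2 pigs farthest from the median turned r to -0.47, so the relation rested on those samples. The 4 numbered libraries with a value were too few for a correlation.

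The genes most like SRD5A1 were sought by Pearson's r of log2 CPM over the 24 plain libraries, the shallower set, among 10335 genes with a mean of at least 5 CPM. All genes share these libraries and their scaling, and r is given as a description with no p. Over all genes the median r was -0.03, with the 5th percentile at -0.30 and the 95th at 0.37. Genes with r near 0.8 or 0.9 thus lay far outside the bulk.

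The 12 genes with a symbol and the highest r were TMEM100, CYP4B1, MGARP, GSTO1, DHRS4, RDH12, AIG1, SCARB1, SULT1C3, CYP17A1, ACSF2 and ALAS1, with r from 0.89 to 0.78. In the 8 numbered libraries, which played no part in the choice, r was positive for 12 of 12, with a median of 0.88, while 53.1% of all 10335 genes were positive there. AIG1 was the lowest of the 12 in those libraries, at 0.46. Of the 100 highest genes of any kind, 99 were positive in the numbered libraries, with a median r of 0.72.

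TMEM100, a small membrane protein known from BMP signalling in vessels, had the highest r, 0.89 in plain and 0.80 in numbered libraries. It ran from 6.41 CPM in Low AS chicory replicate 6, the pig lowest in SRD5A1, through a median of 19.4 to 62.6 CPM in Low AS control replicate 5. Within the AS groups r was 0.88 over 11 High AS and 0.91 over 12 Low AS plain libraries. CYP4B1, a cytochrome P450 known for acting on fatty acids and foreign compounds, followed with 0.87 and 0.81. It ran from 2.22 to 58.8 CPM with a median of 20.4, and its highest plain library was High AS chicory replicate 3, as for SRD5A1. MGARP, a mitochondrial protein of steroid-making tissues, had 0.87 and 0.93 and ran from 3.81 to 63 CPM, highest in the same pig.

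GSTO1, an omega-class glutathione transferase, had an r of 0.86 in both sets and ran from 22.8 to 139 CPM, with its ends in the same 2 pigs as SRD5A1. DHRS4 and RDH12, reductases of retinal and other carbonyls from the short-chain dehydrogenase family, had 0.83 and 0.81 in plain libraries and 0.90 and 0.93 in numbered ones. AIG1, an androgen-induced hydrolase of fatty acid esters, had 0.80. These genes all bore the rank of SRD5A1 at the low end: each was lowest or second lowest in Low AS chicory replicate 6. They were picked by r in these same libraries, so shared ends are partly built in.

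SCARB1, the receptor that takes up cholesterol esters from high-density lipoprotein, had 0.80 in plain and 0.87 in numbered libraries. SULT1C3, a cytosolic sulfotransferase, had 0.79 and 0.90 and ran from 141 to 1210 CPM. ACSF2, an acyl-CoA synthetase of mitochondria, had 0.78 and 0.95. ALAS1, which catalyses the first step of heme synthesis, had 0.78 and 0.95, and it parted from the rest within the AS groups, with an r of 0.36 over the High AS and 0.92 over the Low AS plain libraries. High AS chicory replicate 3, highest in SRD5A1, ranked 9 among the plain libraries in ALAS1, at 139 CPM. Without that pig the r of ALAS1 over the plain libraries was 0.87. Its r within High AS was not computed without that pig, and the difference between the AS groups was not tested.

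**Figure D3:**
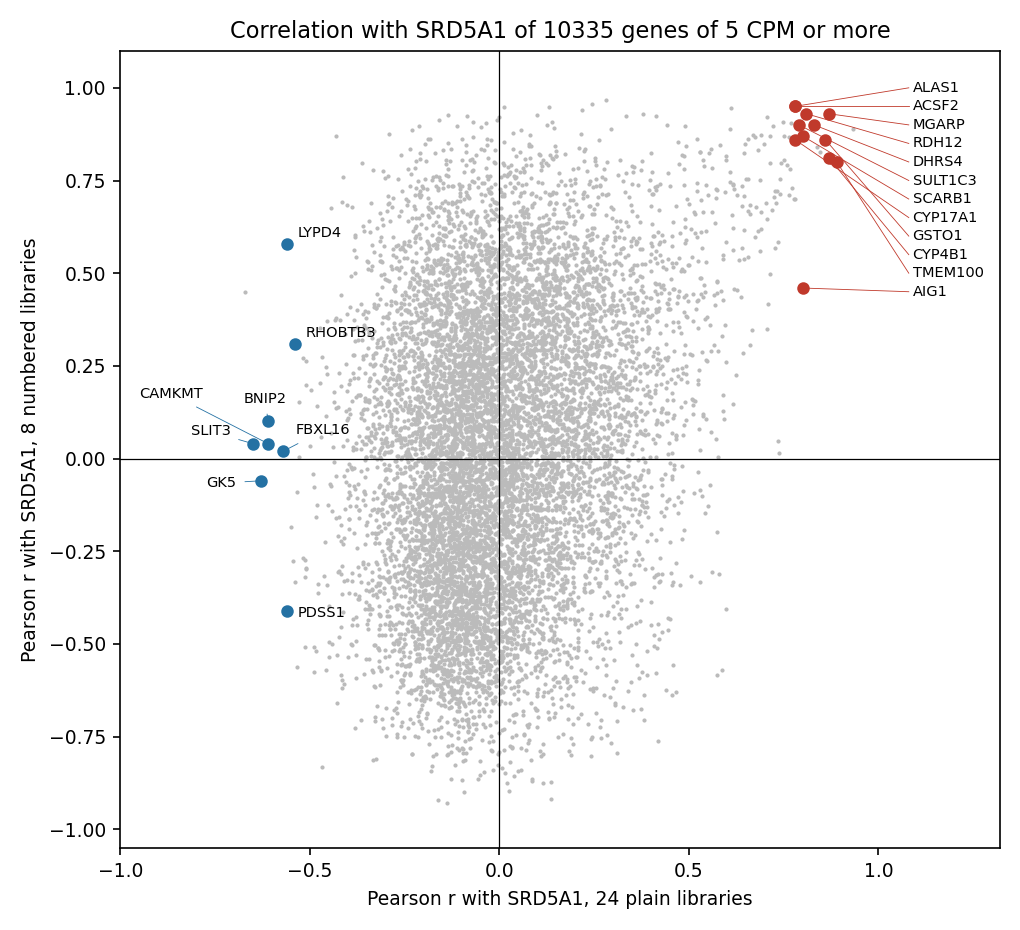
Pearson's r with SRD5A1 log2 CPM over the 24 plain libraries (x axis) against that over the 8 numbered libraries (y axis), each grey point 1 of 10335 genes; red points are the 12 highest and blue points the 8 lowest genes with a symbol by the plain libraries. The red points are all above 0 on the y axis, and 6 of the 8 blue points are too.

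The low end did not carry over to the other library set. The 8 genes with a symbol and the lowest r in plain libraries were SLIT3, GK5, BNIP2, CAMKMT, FBXL16, LYPD4, PDSS1 and RHOBTB3, at -0.65 to -0.54. In the numbered libraries 6 of the 8 were positive, and PDSS1, at -0.41, was the 1 gene clearly below 0. SLIT3, a guidance ligand, went from -0.65 to 0.04, and was at -0.41 without High AS chicory replicate 3. LYPD4, a protein of sperm, went from -0.56 to 0.58. None of the 8 passed the test along SRD5A1 that follows, where their adjusted p ran from 0.158 to 0.779.

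A regression of every gene's counts on SRD5A1 log2 CPM over the 24 plain libraries, by edgeR's quasi-likelihood test, called 58 of 12660 genes at an adjusted p of 0.05 (0.458%). Of these 54 rose with SRD5A1 (0.427%) and 4 fell (0.0316%). All 12 genes with the highest r were among those that rose, with adjusted p from 6.51e-06 to 0.00287. A slope of 1 means a doubling where SRD5A1 doubles. MGARP and CYP4B1 had the steepest slopes of the 12, 1.3 each (SE 0.15 and 0.17), TMEM100 had 1.16 (SE 0.13), and ACSF2 had the flattest, 0.78 (SE 0.14).

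Of the 54 rising genes, 54 had a positive slope in the numbered libraries as well, where 51.2% of all genes did, and 44 had an unadjusted p under 0.05 there with a positive slope, against 2.14% of all genes. The median slope of the 54 was 0.84 in plain and 0.76 in numbered libraries. The lowest of them there was PC, pyruvate carboxylase, with 0.43 (SE 0.09) in plain and 0.00 (SE 0.23) in numbered libraries. edgeR on the 8 numbered libraries alone called 0 of 14604 genes (0%), and 634 had an unadjusted p under 0.05.

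The strongest gene of all had no symbol: ENSSSCG00000026109 had an r of 0.93 and a slope of 1.66 (SE 0.14) in plain libraries and an r of 0.89 in numbered ones. The 4 falling genes also had no symbol and were named after their values were seen. ENSSSCG00000027111, ENSSSCG00000004315, ENSSSCG00000021574 and ENSSSCG00000027149 averaged 1.54, 1.60, 1.35 and 2.60 CPM. Of the 3 tested in numbered libraries 1 fell there too.

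The count of called genes moved with single libraries. Leaving out Low AS chicory replicate 6 gave 27 calls, leaving out Low AS control replicate 2 gave 38 and leaving out Low AS control replicate 5 gave 38. Without High AS chicory replicate 3, the highest pig, there were 48 calls, and without Low AS chicory replicate 7 there were 79. Of the 58 genes, 23 were called in all 24 fits that left out 1 library each. With the log2 of the summed Leydig markers as a further term, a fit added after the data were seen, 8 genes were called, 5 of them among the 58.

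Most calls were lost when pigs were compared within sows. With sow as a block, a fit also added later, edgeR called 1 of 13914 genes (0.00719%), ENSSSCG00000026109, with a slope of 1.35 (SE 0.19, adjusted p = 0.0203). The 12 genes with the highest r kept slopes of 0.52 to 1.39, with adjusted p from 0.843 to 1. The median slope of the 54 rising genes was 0.62 in this fit, against 0.84 without the block. All 54 kept a positive slope, where 47% of all genes had one, and 42 had an unadjusted p under 0.05 by edgeR with it. Of all genes 1.91% had such a p in either direction. The 54 were chosen in these same libraries. Of the 13 sows with plain libraries 5 had 1 library each, and the block left 10 residual degrees of freedom in place of 22. All calls along SRD5A1 given below come from the fit without the block.

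**Figure D4:**
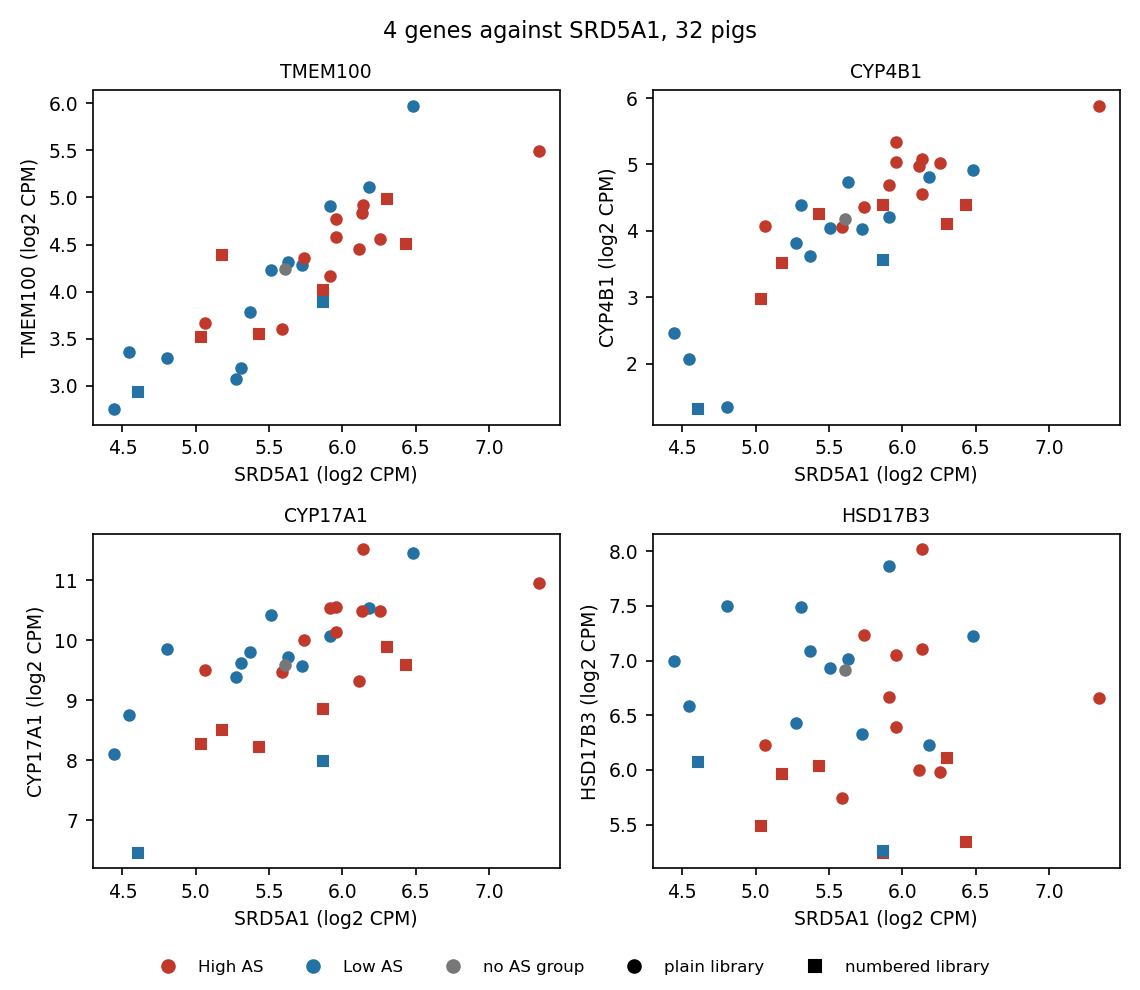
Log2 CPM of TMEM100, CYP4B1, CYP17A1 and HSD17B3 (y axes) against log2 CPM of SRD5A1 (x axes), each point 1 of 32 pigs, coloured by AS group and shaped by library set. The first 3 genes rise with SRD5A1, with an r of 0.89, 0.87 and 0.78 in plain libraries, and HSD17B3 does not, with an r of -0.06.

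The enzymes that lead up to the 5-alpha-reductase step rose with SRD5A1 in part. Of 7 measured genes of 16-androstene and androgen synthesis 3 were called and the median slope was 0.62, against -0.01 for all genes tested, of which 6088 of 12660 were positive. CYP11A1, the side chain cleavage enzyme, had a slope of 0.90 (SE 0.18, adjusted p = 0.0134). CYP17A1 had 0.99 (SE 0.17, adjusted p = 0.00159) and ran from 276 to 2930 CPM over the plain libraries, lowest in the pig lowest in SRD5A1. CYB5A, the cytochrome b5 that steers CYP17A1 toward the 16-androstene, had 0.69 (SE 0.16, adjusted p = 0.0446). CYB5A was called in 9 of the 24 fits that left out 1 library and was not called without the filter on low counts, while CYP17A1 was called in 24 and CYP11A1 in 21.

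The other 4 did not pass. FDXR, the reductase that feeds electrons to CYP11A1, had 0.62 (SE 0.18, adjusted p = 0.216), and CYB5R3, which reduces cytochrome b5, had 0.33 (SE 0.08, adjusted p = 0.0697), though limma's voom fit called CYB5R3. CYB5R1 and HSD17B3, the enzyme that makes testosterone from androstenedione, both had -0.02 (SE 0.13 and 0.19). For HSD17B3 r was -0.06 in plain and -0.38 in numbered libraries, and it changed sign to 0.10 without TMM scaling and to 0.13 with index set means taken out, so no direction can be given. Other enzymes of this stretch, among them HSD3B1 and STAR, had no identifier under their symbol and were not analysed here.

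The steroid oxidoreductases beyond this stretch showed no call. Of 9 measured hydroxysteroid dehydrogenases edgeR called 0 along SRD5A1, 0 had an unadjusted p under 0.05 and voom also called 0, while 6 slopes were positive, with a median of 0.09. HSD17B7 had 0.39 (SE 0.21) and HSD11B2, which inactivates glucocorticoids, 0.52 (SE 0.30). Among 3 measured genes of sulfation and steroid sulfate transport 1 was called: PAPSS2, which makes the sulfate donor, had 0.88 (SE 0.16, adjusted p = 0.00436). SLC10A6 and SLCO2B1, carriers of steroid sulfates, had -0.05 (SE 0.21) and 0.05 (SE 0.22).

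Of 11 genes of gonadotropin and androgen signalling 1 was called, LHCGR, the receptor for luteinizing hormone on Leydig cells. It had a slope of 1.21 (SE 0.28, adjusted p = 0.04) at a low level, 0.261 to 18.5 CPM. It was called in 14 of the 24 fits that left out 1 library, and neither by voom nor without the filter on low counts. NR5A1, the steroidogenic factor that switches on steroid enzymes, had 0.45 (SE 0.26), with an adjusted p of 0.999. The list's median slope was 0.05.

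Of 18 genes of cholesterol supply 3 were called, 16 slopes were positive and the median was 0.27. Among them SCARB1 had 0.84 (SE 0.14), and LSS, which closes the sterol ring, had 0.70 (SE 0.14, adjusted p = 0.0125). SC5D, a late enzyme of cholesterol synthesis, had 0.66 (SE 0.17), with an adjusted p of 0.0989. FDPS, an earlier enzyme of the pathway, had 0.28 (SE 0.08), with an adjusted p of 0.126, and CYP51A1 had -0.13 (SE 0.13). Over these 5 steroid and cholesterol lists, 8 of 48 tested genes were called along SRD5A1, where 0.458% of all genes were. edgeR called 0 of the 48 for diet, the interaction, the breeding value, weight and skatole, where 1, 3, 5, 9 and 13 of them had an unadjusted p under 0.05. Over all genes tested the shares at that p were 0.875%, 3.63%, 10.3%, 1.65% and 4.49%.

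**Figure D5:**
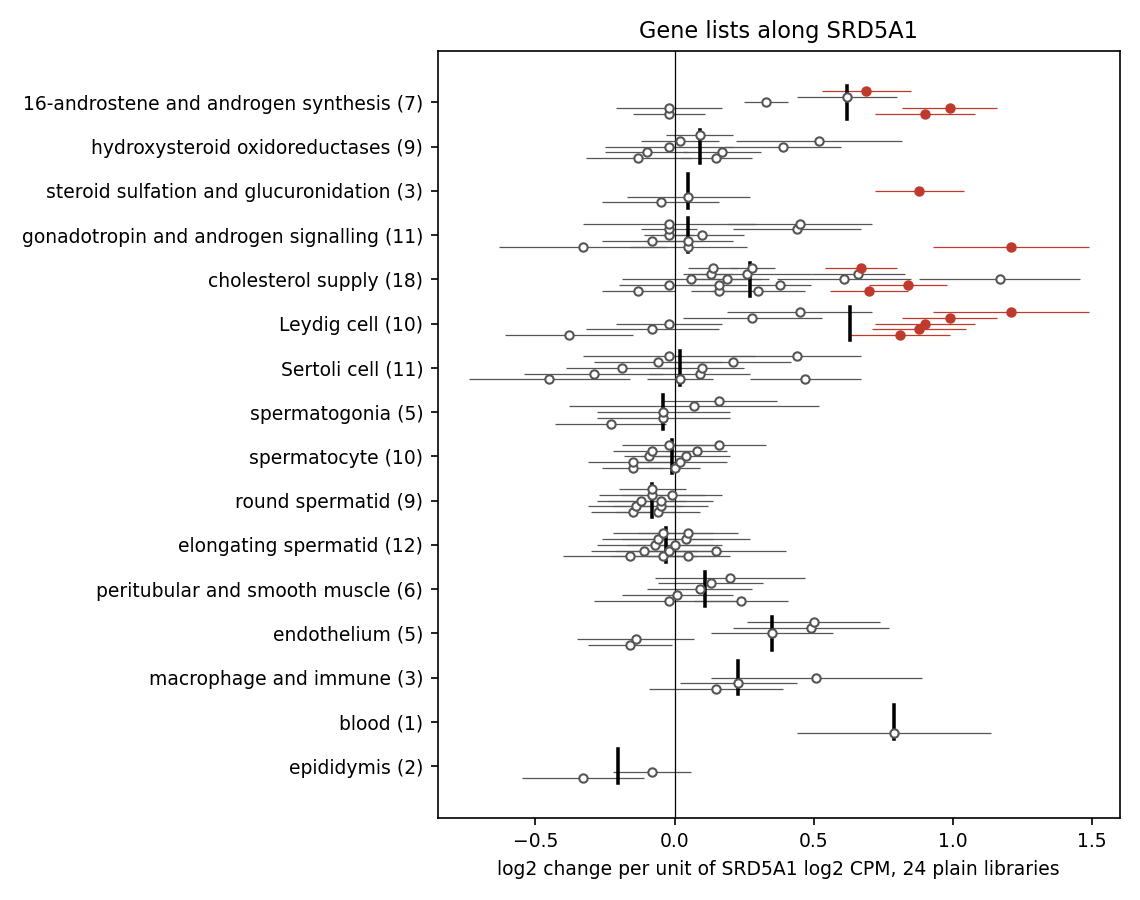
Change in log2 counts per unit of SRD5A1 log2 CPM over the 24 plain libraries (x axis), each point 1 gene with its SE, by list (y axis, number of genes tested in brackets); filled red points passed an adjusted p of 0.05 and black bars are list medians. The Leydig cell and 16-androstene lists have medians of 0.63 and 0.62, and the germ cell lists lie between -0.08 and -0.01.

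Markers of the Leydig cell, the cell that makes these steroids, moved with SRD5A1 in part. Of 10 measured markers 5 were called, where 0.458% of all genes tested were. These were INSL3, a peptide hormone of Leydig cells, with 0.81 (SE 0.18), VCAM1, an adhesion molecule, with 0.88 (SE 0.17), and LHCGR, CYP17A1 and CYP11A1 as above. The list shares CYP11A1, CYP17A1 and HSD17B3 with the synthesis list, so these counts overlap. NR2F2, PDGFRA and IGF1, at 0.28 (SE 0.25), -0.38 (SE 0.23) and -0.08 (SE 0.24), were not called. NR5A1 and HSD17B3, at 0.45 (SE 0.26) and -0.02 (SE 0.19), were not called either. By edgeR and by voom 0 markers of Sertoli cells (11 tested), spermatogonia (5), spermatocytes (10), round spermatids (9), elongating spermatids (12), peritubular cells (6), endothelium (5), macrophages (3), blood (1) or epididymis (2) were called. Of these 64 markers 3 had an unadjusted p under 0.05, INHA, KDR and HBB, or 4.69% against 4.85% of all genes. HBB, the blood marker, had 0.79 (SE 0.35), and the endothelial median was 0.35.

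The summed CPM of the 10 Leydig markers ran from 660 to 5970 in High AS pigs (median 2220) and from 304 to 6180 in Low AS pigs (median 1890), and none of the 10 was at 0 in any library. By library set it ran from 804 to 6180 in plain and from 304 to 2220 in numbered libraries, so the AS medians mix the sets. CYP17A1 and INSL3, averaging 1170 and 1100 CPM in plain libraries, were its largest members. The r of the sum with SRD5A1 was 0.74 over the plain and 0.90 over the numbered libraries, and 101 of the 10335 genes had a higher r with this sum than SRD5A1 did. The genes compared include members of the sum itself, among them CYP17A1, INSL3 and CYP11A1. In tissue RNA, fewer cells of a type and less RNA per cell cannot be told apart. With log2 of this sum in the model the AS difference in SRD5A1 was 0.23 (SE 0.15) in place of 0.54, and the slope on androstenone was 0.29 (SE 0.06) in place of 0.44. The part of the Leydig markers in these relations was not tested. As a description, over the plain libraries the sum had an r of 0.27 with log2 androstenone and of 0.37 with weight.

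SRD5A1 per 1000 CPM of summed Leydig markers was set apart by library set more than SRD5A1 itself. It ran from 10.3 to 43.6 in plain libraries (median 24.6) and from 35.3 to 79 in numbered ones (median 48.5), and the ranges overlapped from 35.3 to 43.6. The 4 pigs at 0 mg/kg, all in plain libraries, ran from 10.3 to 26.6 with a median of 17.8.

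The second 5-alpha-reductase, SRD5A2, the form known from prostate and genital skin, was near the limit of reading. It had 270 counts in all 32 libraries together, at most 31 in 1 library, and 0.354 to 2.54 CPM with a median of 1.40. It did not pass the filter on low counts in the plain libraries and was not tested there. SRD5A3 had no identifier under its symbol and was not analysed here.

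Few genes beside SRD5A1 could be read, and those had an r near or below 0 with it. In the order of the RefSeq annotation of Sscrofa11.1, NSUN2, an RNA methyltransferase, is the next gene on 1 side, and its r with SRD5A1 was -0.14 in plain and -0.61 in numbered libraries. ADCY2 and MED10, farther out, had -0.08 and -0.06 in plain libraries. Most of the nearby genes, among them PAPD7, the next gene on the other side, had no identifier under their symbol and were not read.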

How the data were processed

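Polyadenylated testis RNA was sequenced with a stranded TruSeq kit, per the labels' protocols. The deposited files hold whole-number read counts per Ensembl gene, 1 file per pig, not normalized by the authors. Tools in the submitters' processing notes are HTSeq 0.6.0, STAR, SAMtools 1.3.1, Trimmomatic 0.33 and cutadapt 1.8.1. Build and strand setting are not given in the sources used here. Reads of overlapping genes may therefore be mixed, and positions are left out. The closing rows for reads not assigned to a gene, 37.4% to 50.7% of a file, were left out. A table paired 11804 of 25322 identifiers with symbols.

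Counts were analysed in R 4.3.3 with edgeR 4.0.16 (TMM, filterByExpr, glmQLFit and glmQLFTest, Benjamini-Hochberg adjustment at 0.05), with DESeq2 1.42.0 and limma 3.58.1 as alternatives. The fits were tested on simulated data. AS group, diet and their interaction were fitted to 31 pigs. Androstenone, breeding value and weight were each fitted with diet and library set to the pigs that had the value. Skatole was fitted with library set and no diet term. Log2 CPM used a prior count of 2. Of 108 library pairs within groups, the closest had a chi-square of 7.24 per degree of freedom, so none counted as a duplicate. SE is the log2 value divided by the square root of F. Correlations used 100000 permutations, or all of them for 8 libraries. The gene, the lists and the tests were chosen with earlier results of these data known. Genes named were the members of the pathway lists, the 12 highest and 8 lowest by r, and CYP4B1, CYP17A1, CYB5A, HSD17B3, INSL3 and NR5A1; a few genes under this rule are not reported here. Alternatives were DESeq2, voom, no filter, other batch terms, sow, covariates, and leaving out each pig.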

Additional observations from a re-analysis of the deposited data

Results flagged for a closer look

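On the CPM scale, SRD5A1 at 161 CPM in High AS chicory replicate 3 stood apart from the other 6 pigs of its group. Its gap to the next pig, at 86.2 CPM, was 0.582 of the group's range, above Dixon's 95% critical value of 0.568 for 7 samples. This was run on CPM only. In log2 CPM this pig had 7.34, the next 6.43 and the lowest 5.03, a smaller gap for the range. The group mixed plain and numbered libraries, and the next pig was in a numbered one. No other pig passed in the 4 groups, and chance flags about 1 group in 20. The library held 2268778 counts in genes, 346 of them in SRD5A1. The same pig was the highest plain library for CYP4B1 (58.8 CPM), MGARP (63 CPM), GSTO1 (139 CPM), DHRS4 (2350 CPM) and AIG1 (91.9 CPM), and the third highest of the plain libraries for CYP17A1 (1990 CPM). These genes were among those with the highest r with SRD5A1 over the same plain libraries. High levels in this pig were thus partly built in and are no separate check of its SRD5A1. Its summed Leydig markers, 4890 CPM, ranked 3 and did not stand apart.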

How the results depend on the processing

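The slope of SRD5A1 on the sire breeding value reversed to -0.41 with log2 androstenone as a further term, and the cause was not tested. With sow as a block it was -24.21 (SE 33.82), since pigs differed in that value within 1 sow, so this fit says next to nothing about it. The count of genes called along SRD5A1 was 1 with sow as a block, 8 with the summed Leydig markers as a further term, 27 to 79 when 1 library was left out, 55 with voom, 61 without a filter on low counts and 76 with index set as a further term. In the 8 numbered libraries r turned positive for SLIT3 (0.04), BNIP2 (0.10), CAMKMT (0.04), FBXL16 (0.02), LYPD4 (0.58) and RHOBTB3 (0.31). For HSD17B3 r was 0.10 without TMM scaling, 0.13 with index set means taken out and -0.14 to 0.01 when 1 library was left out.

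Diet, interaction, breeding value, weight and skatole stayed on the same side of the threshold in every alternative run. Leaving out 1 pig gave a range of -0.36 to -0.09 for diet, 0.04 to 0.62 for the interaction, 0.38 to 1.01 for the breeding value, 0.48 to 0.64 for weight and 0.16 to 0.37 for skatole, with DESeq2 values of -0.17, 0.48, 0.69, 0.58 and 0.27. The described AS difference was 0.35 to 0.63 and the androstenone slope 0.33 to 0.51. With carcass weight as a covariate the AS difference was 0.29 (SE 0.24). Terms for androstenone and Leydig markers, the sow block for interaction, weight, skatole, breeding value and the genes along SRD5A1, and fits without the pigs at 0 mg/kg, were chosen after seeing the data. No paired analysis was possible because replicate numbers follow accession order and pair no pigs, and sow was used as a block instead: 0.52 for the AS difference, 0.54 for the androstenone slope, -0.15 for diet, 0.84 for the interaction, 0.72 for weight and 0.87 for skatole.

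Depth limits SRD5A2 and LHCGR, whose counts were low, more than SRD5A1. With 12 pigs the skatole interval admits a slope of 0 and one of 0.59.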

Other observations

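Genes outside the lists were also called along SRD5A1, and those named here were chosen after their values were seen. MSMO1 and TM7SF2, enzymes of sterol synthesis, had slopes of 0.84 (SE 0.18) and 0.87 (SE 0.20) in plain and 0.76 and 0.70 in numbered libraries. TM7SF2 was called in 13 of the 24 fits that left out 1 library, and voom called neither. FTL, the light chain of ferritin, had 0.51 (SE 0.11) and 0.68. PRDX2, a peroxidase, had 0.65 (SE 0.13) and 0.75. AGT, the precursor of angiotensin, had 0.78 (SE 0.14) and 1.33. FBLN2 and FAP, known from connective tissue, had 1.00 (SE 0.21) and 0.89 (SE 0.19) in plain libraries and 0.05 and 0.36 in numbered ones.

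With the summed Leydig markers held in the model, CYP4B1 (slope 1.42, SE 0.25), MGARP (1.15, SE 0.23) and ENSSSCG00000026109 (1.51, SE 0.21) were still called as rising with SRD5A1. FMO1, a flavin monooxygenase with a slope of -0.39 without that term, was called as falling, at -2.08 (SE 0.35).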
